A study of Drosophila mojavensis with 95 samples.

Results

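The 80 transcripts described here were read higher in Sonoran than in Baja California females of Drosophila mojavensis, a desert fly whose larvae feed in rotting cactus, and changed little over a desiccation series when all flies were averaged. They were chosen from the 14528 transcripts of the deposited table by the following rule. Arrays were averaged within each of 24 groups, a population's mean was the mean of its 6 groups, and a mean was taken over the 8 groups at each hour. The 10119 transcripts whose 3 hourly means lay within 0.3 of each other on the log2 scale were kept. Of these, the 80 with the widest distance from the higher Baja California mean up to the lower Sonoran mean are the members. Both Sonoran means lay above both Baja California means in 2623 of the 10119 transcripts.

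RNA of whole bodies of wild-type virgin females was hybridized to 95 one-colour NimbleGen arrays. Flies from the Sonora desert made up 48 arrays, 25 from Organ Pipe National Monument (the labels spell it Manument) and 23 from Punta Onah. Flies from Baja California made up 47 arrays, 22 from San Quintin and 25 from Punta Prieta. They had been reared on media made from organ pipe cactus (46 arrays) or agria cactus (49 arrays) and desiccated for 0 h (31 arrays), 9 h (31) or 18 h (33), with 3 to 5 arrays in each of the 24 combinations. Apart from the cactus in the medium, the labels give all groups the same culture conditions. No group at 9 or 18 h was spared desiccation, so hours elapsed cannot be told apart from drying. A region stands for 2 populations, so a difference between regions cannot be told apart from a difference between these 4 particular populations.

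Drosophila mojavensis lives on necrotic cacti in the deserts of Mexico and the southwestern United States, and its populations differ in the cactus they mainly use: agria in Baja California and organ pipe on the Sonoran mainland. A small insect loses water through its cuticle, its spiracles and its gut, and desert drosophilids are known for slow water loss. Transcripts can differ between populations before and during drying while their average over populations moves little. Choosing them this way does not leave out transcripts with a small induction or repression by drying. No gene name or role can be given to the members, because 0 of the 14528 identifiers occur in the species' reference table of 15130 genes. For the same reason the labelled tissue could not be checked against marker genes, and no sequence is shown. In whole flies, fewer cells of a type and less RNA per cell cannot be told apart, and neither can a lower RNA level and weaker binding of the probes to the RNA of a population.

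One array stood apart from its label. The fourth replicate of Punta Prieta flies reared on organ pipe at 0 h had a mean over the 80 members of 9.50 (all levels are log2), where the other replicates of its group had 9.19, 9.06 and 8.93. Each array's reading was set against the means of the 2 regions at the same hour and on the same diet, leaving that array out of its own group. The fourth replicate lay nearer the Sonoran mean in 69 of the 80 members, as many as the median Sonoran array (69, range 50 to 78), while the other 46 Baja California arrays did so in 3 to 36 members. The third replicate of the same group lay nearer Sonora in 3 members, but it stood between the Baja California populations. Over the 100 transcripts with the largest difference between those populations relative to their spread, it lay nearer San Quintin in 63, against 1 to 37 in the 6 other Punta Prieta arrays at 0 h and 81 to 99 in the 8 San Quintin arrays at 0 h. These 100 transcripts were chosen with all of these arrays included, so a separation of the populations is partly built in. Both arrays were kept as labelled, and some results are also given without them. The gaps by hour, the population means and the changes within single regions and populations include them throughout.

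The members separated the regions on every array but that one. The mean of the 80 averaged 9.63 ± 0.112 in Sonora (SD, n = 48 arrays) and 9.04 ± 0.115 in Baja California (SD, n = 47 arrays). The lowest, median and highest Sonoran arrays had 9.37, 9.62 and 9.97, and those of Baja California had 8.86, 9.03 and 9.50. Without the fourth replicate the highest Baja California array had 9.28, below every Sonoran array. The rule chose the members for this difference, so it is given as a description and was not tested.

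**Figure D1:**
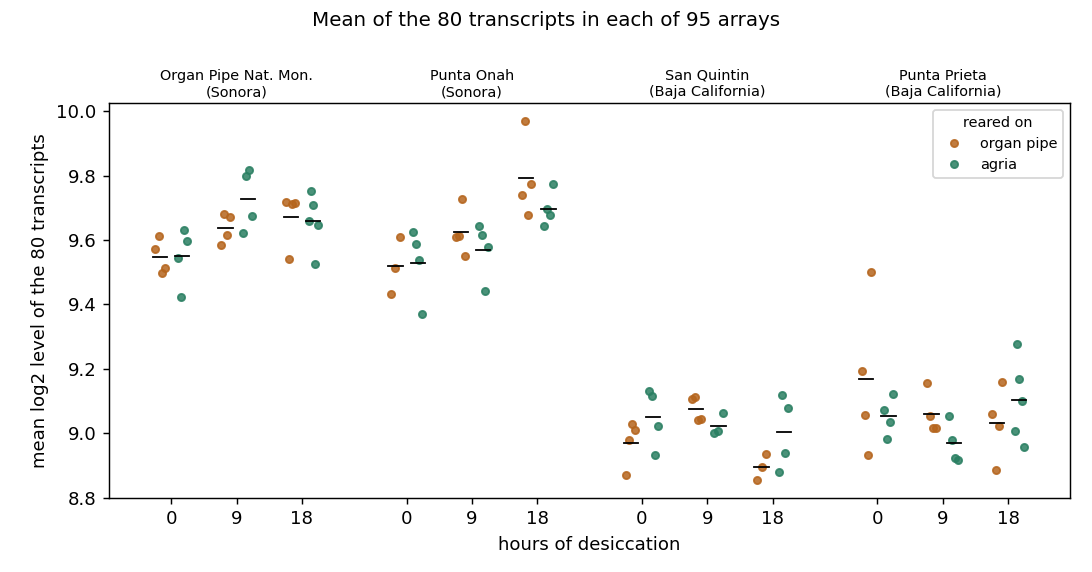
Mean log2 level of the 80 members (vertical axis) in each of the 95 arrays, by population, hour of desiccation (horizontal axis) and rearing cactus (colour); points are arrays and short lines are group means. The Sonoran arrays lie between 9.37 and 9.97 and the Baja California arrays between 8.86 and 9.28, apart from the 1 Punta Prieta array at 9.50.

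FBtr0168456 had the highest score, the distance used by the rule, at 1.45. Its lowest, median and highest readings were 7.72, 8.45 and 9.86 in the 48 Sonoran arrays. In the 47 Baja California arrays they were 5.84, 7.02 and 8.39. The groups overlapped only through the fourth Punta Prieta replicate at 8.39; without that array and the third replicate the highest Baja California reading was 7.60, below the lowest Sonoran one. Its population means were 8.51 in Organ Pipe National Monument, 8.61 in Punta Onah, 6.998 in San Quintin and 7.06 in Punta Prieta, and the mean of Sonora was 2.89-fold that of Baja California.

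FBtr0169038 followed with a score of 1.43 and a 2.80-fold difference. In Sonora its readings had a lowest value of 8.37, a median of 9.11 and a highest value of 9.96, against 6.98, 7.66 and 8.89 in Baja California. Again 1 array made the overlap: without the 2 Punta Prieta replicates the highest Baja California reading was 8.20. Its population means were 9.11 in Organ Pipe National Monument, 9.19 in Punta Onah, 7.65 in San Quintin and 7.68 in Punta Prieta. In both transcripts the populations of a region lay within 0.10 of each other, a small distance beside the gap between regions.

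**Figure D2:**
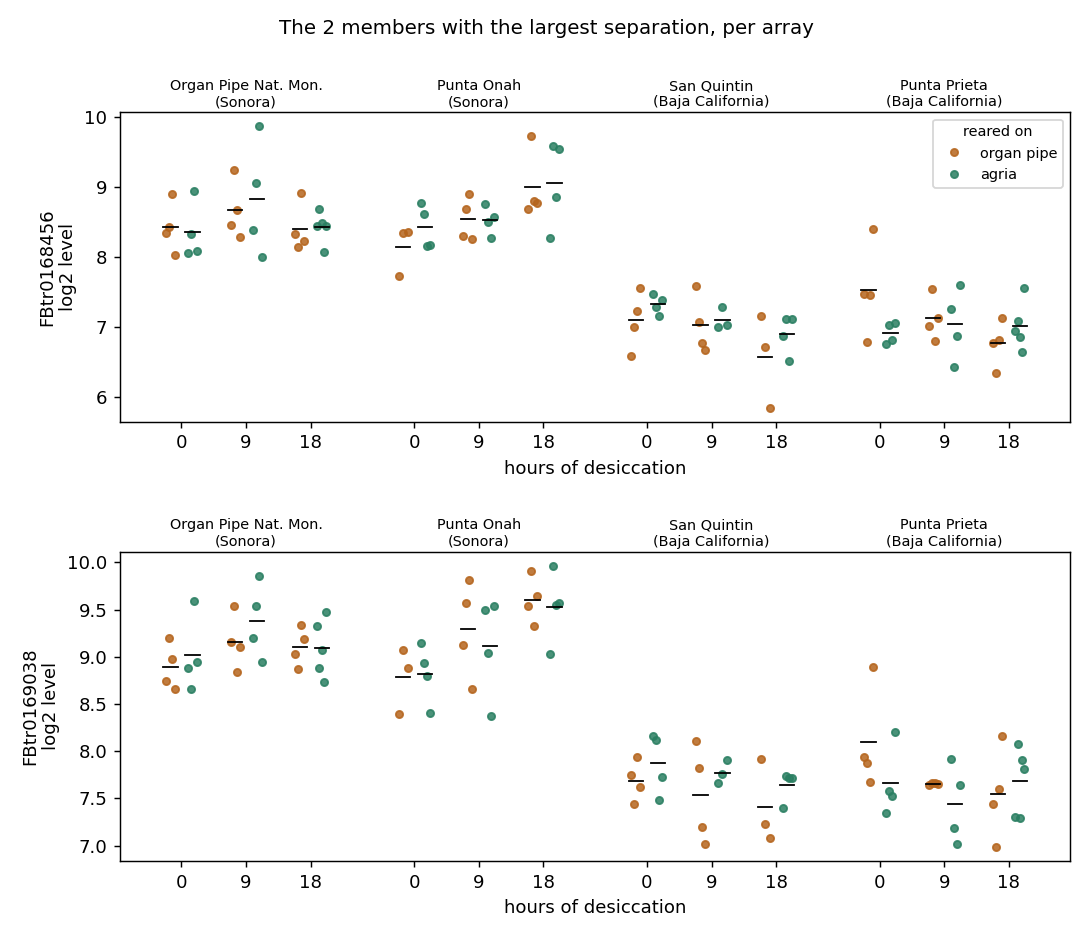
Log2 level (vertical axes) of FBtr0168456 and FBtr0169038 in each array, by population, hour (horizontal axes) and rearing cactus (colour); short lines are group means. In both panels every Sonoran array lies above all Baja California arrays except the Punta Prieta organ pipe replicate at 0 h with 8.39 and 8.89.

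The gap between regions, the mean of the Sonoran populations minus that of the Baja California populations, was 0.443 in the median member and ran from 0.286 to 1.53, with quartiles at 0.386 and 0.742. Over all 14528 transcripts the median gap was 0.0042 and the median absolute gap 0.0691. A difference of at least 1.5-fold was seen in 27 members, against 76 (0.523%) of all transcripts. One of at least 2-fold was seen in 10 members, against 19 (0.131%) of all. The member count at 1.5-fold shows that most members differ modestly: the list has a short head of large differences and a long tail of small ones.

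Group means of the regions overlapped in most members. In 32 members all 12 Sonoran group means lay above all 12 Baja California group means, as they did in 56 (0.385%) of all transcripts. No member had every Sonoran array above every Baja California array, and neither did any other transcript of the table. Without the 2 Punta Prieta replicates 3 members did (FBtr0168456, FBtr0169038 and the member of rank 25), of 4 such transcripts in all (0.0275%). In the limma fit all 80 members passed the threshold as higher in Sonora, where 16.7% of all transcripts did. The rule used this contrast, and nothing is read from these counts.

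Members shaded into the transcripts left out. The score of the member of rank 80 was 0.2673 and that of the next transcript 0.2656; 5 members had a score of at least 1 and 25 of at least 0.5. The limit on change over time also decided membership, since 62 transcripts with scores as high as the members' changed by 0.3 or more, the first 3 of them with scores of 1.43, 1.42 and 1.18. Among the members the spread of the 3 hourly means ran from 0.0253 to 0.298 with a median of 0.175, against 0.156 in all transcripts under the limit. A member can therefore lie close to the limit, and stability here means a small average change and not a flat course in each population. In the limma fit 28 members passed the threshold as higher at 18 h than at 0 h and 11 as lower. Over all 14528 transcripts 5277 and 5612 did. The rule limits this contrast, and nothing is read from these counts.

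Within a region the populations lay close together in most members and apart in a few. Organ Pipe National Monument was the highest of the 4 populations in 41 members and Punta Onah in 39; San Quintin was the lowest in 53 and Punta Prieta in 27. The difference of Organ Pipe National Monument minus Punta Onah had a median of 0.0042 and ran from -0.667 to 0.545. That of San Quintin minus Punta Prieta had a median of -0.0360 and ran from -0.448 to 0.270, and it was above 0 in 27 members, against 56.4% of all transcripts. The rule sets only the regional order, but it limits these differences too through the choice of the nearest populations, so they were not tested. The Punta Prieta means include the fourth replicate on organ pipe at 0 h, which lay nearer the Sonoran mean in 69 members. A high reading there raises the Punta Prieta mean and lowers San Quintin minus Punta Prieta. How far that array moved the median and the counts for San Quintin and Punta Prieta was not tested.

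A few members show what these ranges hold. The member of rank 34 averaged 9.21 in Organ Pipe flies and 9.88 in Punta Onah flies, against 8.81 in San Quintin and 8.71 in Punta Prieta. The member of rank 15, FBtr0170480, had the opposite order in Sonora, with 11.11 in Organ Pipe flies and 10.56 in Punta Onah flies, above 9.86 in San Quintin and 9.59 in Punta Prieta. The 2 Sonoran populations thus took turns at the top. San Quintin was clearly the lowest population in the members of rank 7 (9.99, against 10.41 in Punta Prieta), rank 8 (9.35 against 9.78), rank 10 (9.96 against 10.38) and rank 12 (11.09 against 11.54), while the Sonoran means of these 4 members were 10.65 or higher. Rank 6 shows the other form, with 12.15 and 12.14 in Organ Pipe National Monument and Punta Onah and 11.17 and 11.18 in San Quintin and Punta Prieta.

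**Figure D3:**
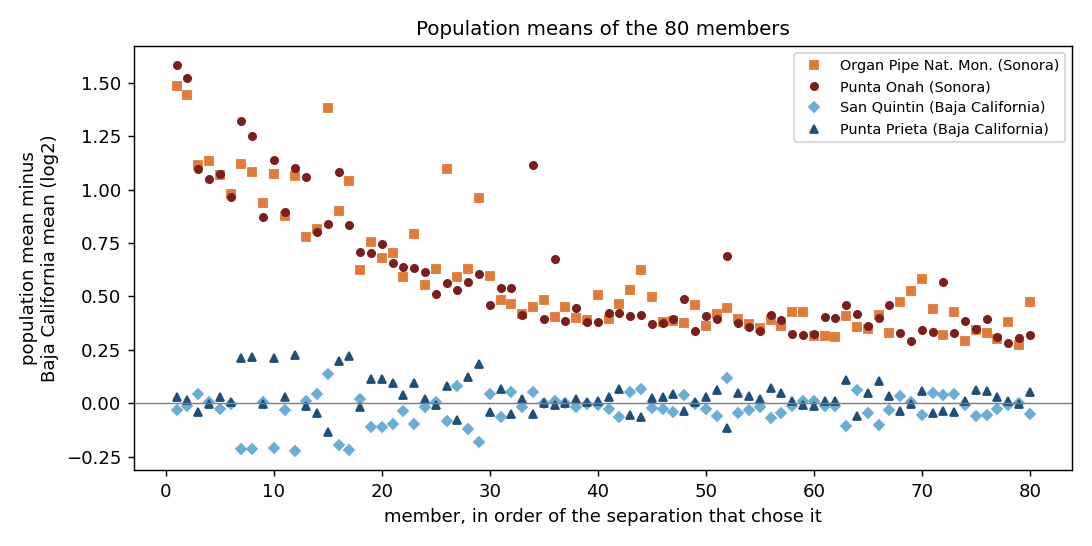
Population mean minus the mean of the Baja California populations (vertical axis, log2) for each of the 80 members in order of the score that chose them (horizontal axis). The Sonoran symbols lie above the Baja California symbols in every member, as the rule requires, and Sonoran populations part most at ranks 15 and 34.

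Members were mostly read in the lower part of the range. With all transcripts cut by mean level into 5 equal classes, 21 members fell in the dimmest class, then 26, 20, 9 and 4 in the brightest. The median mean level was 9.13 over the members and 10.29 over all transcripts; a level also depends on how its probes bind and is no measure of abundance between transcripts. The SD within groups had a median of 0.247 in the members and 0.201 in all transcripts, and 62 members lay above the median of all. The gap was 0.825 to 4.79 times that SD, with a median of 1.99. The weakest member by this ratio is that of rank 79 and the strongest that of rank 25, whose fold difference was only 1.48.

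The regional gap was present in nearly every condition. It was above 0 in all 6 combinations of hour and rearing cactus in 79 members, the exception being a value of -0.0052 on agria at 0 h. On organ pipe the median gap was 0.456 (0.253 to 1.51) and on agria 0.437 (0.261 to 1.55). By hour, the median gap was 0.421 at 0 h, 0.463 at 9 h and 0.567 at 18 h; the medians over all transcripts were 0.0028, -0.00053 and 0.0054. A gap of at least 2-fold was seen in 4 members at 0 h, 13 at 9 h and 16 at 18 h, and one of at least 1.5-fold in 24, 27 and 38. These counts by hour were not made over all transcripts. The fourth Punta Prieta replicate at 0 h, with its high mean over the members, lowers the gap at that hour. The rule used the mean gap over the 3 hours but not the differences between hours, which were tested next.

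**Figure D4:**
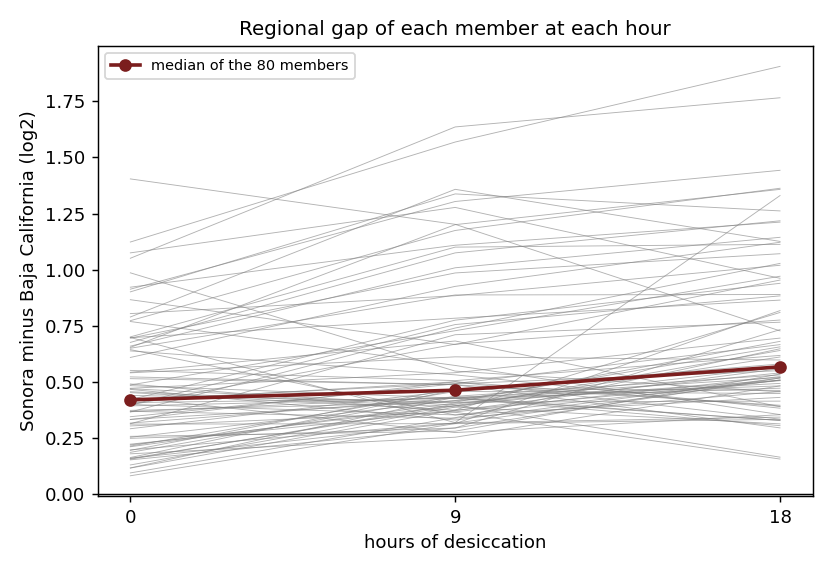
Gap between regions, Sonora minus Baja California (vertical axis, log2), of each member at 0, 9 and 18 h of desiccation (horizontal axis); grey lines are members and the dark line is their median. The median runs through 0.421, 0.463 and 0.567, and single lines run both up and down.

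The first tested question was whether the gap is the same after 18 h as before desiccation. In 37 of the 80 members it was wider at 18 h and in 4 it was narrower, at an adjusted p under 0.05 (limma, Benjamini-Hochberg over all 14528 transcripts). Over all transcripts 22.9% were called in the first direction and 19.4% in the second. The change of the gap had a median of 0.257 in the members and -0.0035 in all transcripts, and it was above 0 in 63 members (49.4% of all transcripts). Without the 2 Punta Prieta replicates its median was 0.249 in the members, and it was above 0 in 59 (49.8% of all transcripts). The contrast shares almost nothing with the region and time contrasts that the rule used. By the design alone, with arrays taken as independent, its estimates correlate with theirs at -0.020 to 0.0202. Contrasts between the populations of a region were not part of that check. The 80 transcripts chosen by the mirrored rule, higher in Baja California, had a median gap of -0.469, so a change above 0 narrows their gap. Their median change was 0.0112, with 42 above 0.

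Split by region, most members had a change above 0 in Sonora and below 0 in Baja California. The change at 18 h had a median of 0.198 in Sonora, with 61 members above 0, and of -0.0578 in Baja California, with 25 above 0. Over all transcripts these medians were 0.0125 and -0.0331, and 51.1% and 43.0% of transcripts were above 0. In single populations the medians were 0.165 in Organ Pipe National Monument (62 members above 0), 0.249 in Punta Onah (58), -0.0551 in San Quintin (29) and -0.0303 in Punta Prieta (33). Over all transcripts the medians were 0.0105, 0.0142, -0.0251 and -0.0458 in the same order. The members thus lay above all transcripts in both Sonoran populations, below them in San Quintin and not below them in Punta Prieta. The 0 h means of Punta Prieta and Baja California include the fourth replicate, at 9.50 over the members against 9.19, 9.06 and 8.93. A high reading at 0 h lowers the change, and these changes were not computed without that array. By sign, 41 members went up in Sonora and down in Baja California, 5 the other way, 20 up in both and 14 down in both. This split was not counted over all transcripts, so nothing is read from it about the members. The rule keeps the average of the regions within 0.3, so opposite signs are favoured by the choice of members wherever the gap changes.

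FBtr0168456 had the largest widening. In Sonora its lowest, median and highest readings were 7.72, 8.34 and 8.94 at 0 h (15 arrays), 8.001, 8.53 and 9.86 at 9 h (16 arrays) and 8.06, 8.67 and 9.72 at 18 h (17 arrays). In Baja California they were 6.59, 7.19 and 8.39 at 0 h (16 arrays), 6.42, 7.02 and 7.60 at 9 h (15 arrays) and 5.84, 6.86 and 7.55 at 18 h (16 arrays). The medians moved up in Sonora and down in Baja California, and at 9 and 18 h no array of one region reached the other. The gap grew by 0.78 ± 0.206 (SE; adjusted p = 0.00391, limma), and by 0.68 (adjusted p = 0.00672) without the 2 Punta Prieta replicates. Its change at 18 h was 0.02 in Organ Pipe flies and 0.74 in Punta Onah flies, a difference that was not called in the test of the Sonoran populations. With the shared axis described below removed it was 0.72 (adjusted p = 0.0419), and with the axis and both replicates removed 0.585 (adjusted p = 0.105), where the call ended. It also ended on agria alone, at 0.51 (adjusted p = 0.165).

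FBtr0164673, the member of rank 66, had almost no gap at 0 h. Its Sonoran readings had medians of 9.26, 9.65 and 9.90 at 0, 9 and 18 h, and a range of 8.97 to 10.86 at 18 h. Its Baja California medians were 9.08, 9.36 and 9.14, with a range of 8.61 to 9.83 at 18 h. The regions overlapped at every hour. At 0 h the gap was 0.0823, and 1 Punta Prieta array read 10.94. The gap grew by 0.74 ± 0.204 (adjusted p = 0.00534, limma), but by 0.15 (adjusted p = 0.553) with that axis removed. The call also ended on either diet alone and without replicate 1.

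Few members narrowed. FBtr0170480 did so most: its Sonoran readings had medians of 11.01, 10.75 and 10.76 at 0, 9 and 18 h, and its Baja California readings 9.65, 9.55 and 9.99. The lowest Sonoran reading at 18 h was 9.77 and the highest Baja California reading was 10.39, so the regions overlapped there. The gap changed by -0.68 ± 0.168 (adjusted p = 0.00258, limma), and by -0.79 (adjusted p = 0.00022) without the 2 Punta Prieta replicates. With the shared axis removed the change was -0.34 (adjusted p = 0.186), and the call also ended on organ pipe alone. With the axis and both replicates removed it was -0.44 (adjusted p = 0.0323, limma), and the call held. FBtr0162659, of rank 55, had Sonoran medians of 9.61, 9.52 and 9.27 and Baja California medians of 9.17, 9.02 and 9.15. Its gap changed by -0.30 ± 0.102 (adjusted p = 0.0153), and by -0.15 (adjusted p = 0.44) with the axis removed, a call that also ended on either diet alone and without replicate 1 or 2.

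An array-wide component moved with this result. The first component of the deviations of arrays from their group means, the shared axis, held 41.8% of the within-group variance. The scores of arrays on this axis kept the differences between groups, which the deviations themselves do not hold. The mean score in Sonora was 18.2 at 0 h, -6.72 at 9 h and -18.6 at 18 h, and in Baja California 9.49, -1.88 and 1.65. The members' residuals correlated with the axis at a median of -0.220, with 47 below 0, and those of all transcripts at 0.156, with 40.4% below 0 (across transcripts, which share the arrays). With the score as a covariate 8 members were called, all wider at 18 h, against 3.21% of all transcripts in that direction and 1.15% in the other. Of these 8, 6 were among the 41. The median change was then 0.142, and it was above 0 in 63 members. The covariate itself differed between regions over the hours, so the lower count cannot be assigned to technical or to biological variation. How far the axis is technical was not tested.

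The level of a transcript also moved with the result. Among other transcripts the median change of the gap was 0.206 in the dimmest class, 0.293 in the second, -0.110 in the third, -0.0987 in the fourth and -0.0556 in the brightest. The members had 0.205, 0.385, 0.225, 0.239 and -0.0240 in the same order, the last 2 from only 9 and 4 members. In the dimmest class members and others had nearly the same median, and in the 2 classes between the second and the brightest they lay on opposite sides of 0. Members called as wider numbered 7 of 21, 18 of 26, 7 of 20, 5 of 9 and 0 of 4, beside 31.2%, 49.9%, 19.2%, 7.25% and 6.27% of the others. These shares describe the classes and no test was run on them.

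**Figure D5:**
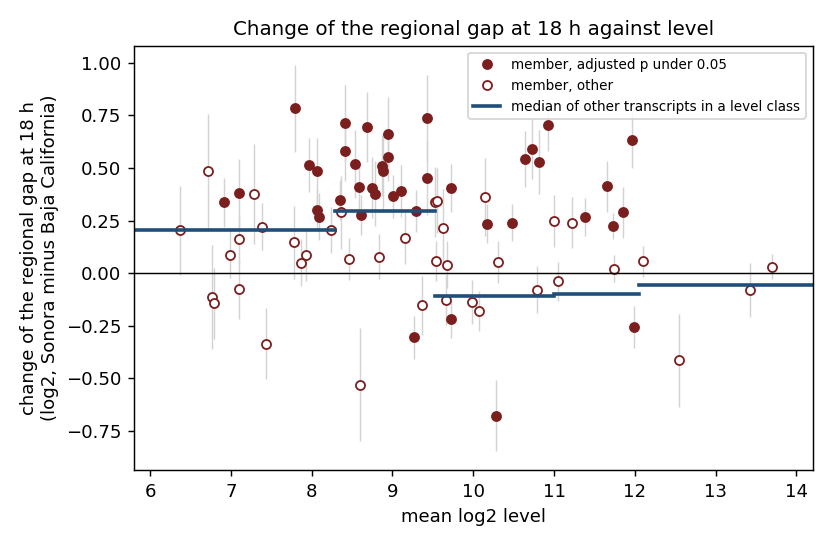
Change of the regional gap from 0 to 18 h (vertical axis, log2, Sonora minus Baja California) against mean log2 level (horizontal axis) of the 80 members, with SE as grey bars; filled points passed an adjusted p of 0.05. Blue lines give the median of the other transcripts in 5 level classes, at 0.206, 0.293, -0.110, -0.0987 and -0.0556.

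The count of 41 was the same without the 2 Punta Prieta replicates (36 wider and 5 narrower, against 25.4% and 21.4% of all transcripts), and 39 members were called both times. On organ pipe alone 12 members were called as wider (2.68% of all transcripts) and 0 as narrower (1.28%). On agria alone 4 were called as wider (3.93%) and 2 as narrower (5.38%). The count also moved when 1 replicate number was left out of every group. Without replicate 1 it was 16 wider (8.08%) and 1 narrower (5.95%), without replicate 2 it was 21 (8.42%) and 1 (5.47%), and without replicate 4 it was 22 (13.7%) and 2 (10.5%). Without replicate 3 it was 38 (24%) and 4 (24.7%), and without replicate 5 it was 34 (20.3%) and 3 (17.3%).

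At 9 h the change of the gap was smaller and rarely passed the threshold. It had a median of 0.144 and was above 0 in 60 members (48.6% of all transcripts). One member was called, as wider (0.145% of all transcripts), and the unadjusted p was under 0.05 in 22, as in 1830 of all transcripts. That member was FBtr0175016, of rank 5. Its Sonoran readings had a lowest value, median and highest value of 10.90, 11.07 and 11.67 at 0 h, 11.31, 11.57 and 11.97 at 9 h and 11.38, 11.61 and 12.00 at 18 h. Its Baja California readings were 9.72, 10.59 and 11.38 at 0 h, 9.85, 10.45 and 10.70 at 9 h and 9.76, 10.34 and 10.84 at 18 h. The regions overlapped at 0 h and were fully apart at both later hours. The gap grew by 0.55 ± 0.123 at 9 h (adjusted p = 0.0232, limma), a call that ended on organ pipe alone and without replicate 1, 2 or 3. With array weights 18 members were called, 16 of them as wider, against 5.67% of all transcripts in that direction and 8.73% in the other. The 9 and 18 h comparisons share their 0 h arrays.

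The populations of a region were next compared in their change at 18 h. In Sonora 1 member was called, FBtr0164526 of rank 32, where 0.64% of all transcripts were called in that direction; the unadjusted p was under 0.05 in 10 members and 1723 transcripts of the table. Its lowest, median and highest readings in Organ Pipe National Monument were 9.67, 10.02 and 10.24 at 0 h (8 arrays), 9.72, 10.06 and 10.31 at 9 h (8 arrays) and 10.22, 10.54 and 10.75 at 18 h (9 arrays). In Punta Onah they were 10.29, 10.34 and 10.58 at 0 h (7 arrays), 9.76, 10.18 and 10.37 at 9 h (8 arrays) and 9.97, 10.28 and 10.61 at 18 h (8 arrays). At 0 h every Organ Pipe National Monument array lay below every Punta Onah array, and at 18 h the medians stood the other way round. The changes differed by 0.61 ± 0.148 (adjusted p = 0.0167, limma), a call that ended on either diet alone and without replicate 1, 2 or 3.

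In Baja California no member was called by limma in the same comparison, where 0.64% of all transcripts were; an unadjusted p under 0.05 was found in 10 members and 1295 transcripts of the table. The smallest p was that of FBtr0168778, of rank 8. Its San Quintin medians were 9.73, 9.34 and 9.05 at 0, 9 and 18 h, and its Punta Prieta medians 9.74, 9.53 and 10.03. The ranges of the populations overlapped at 18 h, with San Quintin at 8.35 to 9.89 and Punta Prieta at 9.38 to 10.54. The difference of the changes was -0.89 ± 0.263 (adjusted p = 0.115). The median 95% interval of a member in these comparisons reached 0.346 to either side, so differences of that size can be missed.

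The cactus on which flies were reared left no called difference in any member. Organ pipe minus agria had a median of -0.0010 and ran from -0.0900 to 0.125, with 40 members above 0. By limma 0 members were called, against 0.0138% of all transcripts, and the unadjusted p was under 0.05 in 2 members and 470 transcripts of the table. The smallest p belonged to FBtr0173352, of rank 27, whose readings had a lowest value, median and highest value of 7.86, 8.53 and 9.36 on organ pipe and 7.52, 8.39 and 9.02 on agria. Its diets overlapped almost fully, and its difference was 0.10 ± 0.0412 (adjusted p = 0.998). The median 95% interval reached 0.1004 to either side, below the smallest regional gap of 0.286.

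No member passed the threshold for a regional gap that differed by diet. The region by diet contrast ran from -0.204 to 0.236 over the members, and limma called 0 members and 0% of all transcripts; the unadjusted p was under 0.05 in 0 members and 167 transcripts of the table. FBtr0164929, of rank 11, had the smallest p: Sonoran medians of 8.32 on organ pipe and 8.48 on agria, Baja California medians of 7.57 and 7.49, and a contrast of -0.20 ± 0.105 (adjusted p = 0.9999). The median 95% interval reached 0.201 to either side.

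Diet also gave no called difference in the 18 h change. That contrast ran from -0.562 to 0.342, with 0 members called by limma and 0% of all transcripts; the unadjusted p was under 0.05 in 6 members and 1174 transcripts of the table. The smallest p was that of FBtr0173355, of rank 9, with medians on organ pipe of 9.89, 9.81 and 9.31 at 0, 9 and 18 h and on agria of 9.55, 9.60 and 9.49. Its contrast was -0.56 ± 0.186 (adjusted p = 0.473), and -0.47 (adjusted p = 0.746) without the 2 Punta Prieta replicates. The median 95% interval reached 0.245 to either side, wider than for diet alone.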

How the data were processed

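The deposited table holds 1 log2 level per transcript and array, made by the authors with RMA (background correction, quantile normalization, probe summary), per the submitters' processing notes; no version is stated. Columns were matched to samples by their labels, and 0 were left over. The table spans 4.52 to 15.6, with array medians of 10.17 to 10.40. No detection calls, probe sequences or slide positions were used, and the number of arrays limits the precision. Replicates are not said to be separate cultures, so p-values measure only the spread between these arrays.

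All transcripts were fitted with limma 3.58.1 (R 4.3.3) as means of 24 groups (71 residual degrees of freedom), with equal-weight contrasts, two-sided moderated tests and Benjamini-Hochberg adjustment, called under 0.05. The fit was tested on simulated data. The rule used region, time and populations within a region, which were not tested. Named transcripts were the 2 highest by score and, per comparison, the 2 largest called estimates in each direction, or otherwise the smallest p. Members and lists were chosen with earlier results of these data known. Planned lists of known genes could not be joined to the identifiers. Alternatives were median centring, array weights, the shared axis as a covariate, a replicate block, left-out arrays or replicates, single diets, no dimmest 20%, and other time limits. Removing the axis and both Punta Prieta arrays together was chosen after seeing the data.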

Additional observations from a re-analysis of the deposited data

Results flagged for a closer look

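The mean of the 80 members and the 2 members of highest score were examined for a reading far from the others within each group. Groups of 3 arrays were left out. Of these 63 checks 3 found one, where chance gives about 1 in 20. The checks share their arrays, and both transcripts are part of the mean. The mean of the 80 members was 9.54 in replicate 2 of Organ Pipe National Monument flies on organ pipe at 18 h, below the other replicates at 9.711 to 9.719. FBtr0168456 read 9.724 in replicate 2 of Punta Onah flies on organ pipe at 18 h, above the others at 8.68 to 8.788. FBtr0169038 read 7.402 in replicate 1 of San Quintin flies on agria at 18 h, below the others at 7.715 to 7.737.

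Tested differences between regions or populations were found in the named transcripts. The change of the regional gap at 18 h was 0.782 in FBtr0168456, 0.736 in FBtr0164673, -0.677 in FBtr0170480 and -0.305 in FBtr0162659. At 9 h it was 0.547 in FBtr0175016. Between the Sonoran populations the 18 h changes of FBtr0164526 differed by 0.611, Organ Pipe National Monument minus Punta Onah.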

How the results depend on the processing

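The count of members whose gap changed at 18 h (41) was 8 with the shared axis removed, 8 with the axis and both Punta Prieta arrays removed, 6 on agria alone, 12 on organ pipe alone, and 17 to 42 with a replicate left out; over all transcripts the count was 6143, against 633, 815, 1352, 575, and 2018 to 7078. At 9 h the count of 1 was 18 with array weights, 0 on organ pipe alone and 0 to 1 with a replicate left out (all transcripts 34, against 2093, 0, and 0 to 33). Array weights gave 1 for diet, 2 for diet by 18 h, 3 for the Sonoran and 2 for the Baja California populations (all transcripts 138, 250, 458 and 289, against 2, 0, 117 and 93). The count for the Sonoran populations was 0 on agria alone, 0 on organ pipe alone and 0 to 2 with a replicate left out. For Baja California it was 4 with the axis and both arrays removed. Over all transcripts these counts were 64, 1 and 53 to 118 for the Sonoran populations, and for those of Baja California 330, with 172 without the axis, 213 without both arrays, 0 on organ pipe alone and 22 to 84 with a replicate left out. The rule kept 49 members with a time limit of 0.2, 52 with 0.5 and 39 with none, and 66 to 76 with a replicate left out. The median gap stayed between 0.435 and 0.494. Of the other results, 24 values of named transcripts lost their call under an alternative, 3 gained one and none changed sign. Left-out replicates and single diets leave fewer arrays. The 18 h count was 17 without replicate 1 and 42 without replicate 3. Causes of these shifts were not tested.

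Replicate numbers did not pair the arrays: residuals of same-number pairs correlated at a mean of -0.0091 (1039 pairs) and other pairs at 0.0036 (3283 pairs). With a replicate block the counts were 40, 1, 0, 0, 0, 1 and 0 for 18 h, 9 h, diet, region by diet, diet by 18 h, and the Sonoran and Baja California populations.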

Other observations

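Members with neighbouring identifiers varied together. Identifiers within 10 numbers of each other formed 10 pairs among 16 members, and the residuals of these pairs, deviations from group means over the 95 arrays, correlated at a median of 0.395, from 0.237 to 0.748. Over all 3160 pairs of members the median was 0.0938. Among the 14234 pairs of adjacent identifiers in the whole table it was 0.112. The mirrored list of 80 transcripts, higher in Baja California, held 9 such pairs among 15 transcripts, with a median of 0.392. Whether neighbouring identifiers mark neighbouring genes, alternative transcripts or shared probes is not recorded in the files used here, and these correlations are descriptions with no test.

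Residuals of the members also correlated more than those of all transcripts, with a mean of 0.1002 against 0.0257 and, with the shared axis removed, 0.0971 against 0.0417. The mirrored list had 0.0880. These correlations, and those of the neighbouring identifiers, include the fourth replicate of Punta Prieta flies on organ pipe at 0 h. That array lay nearer the Sonoran mean in 69 members. No correlation was computed without that array, and how far it raised these values was not tested.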
